A study of Mus musculus with 25 samples.

Results

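The genes described here are 10 that megakaryocytes and platelets are known for, and they were followed in mouse hematopoietic stem cells (HSCs) with and without *Znf143*. They are *Gp1bb*, *Gp9* and *Gp6* of the platelet glycoproteins, *Itga2b* and *Itgb3* of the platelet integrin, the granule genes *Pf4*, *Vwf* and *Selp*, the platelet receptor *Treml1* and the transcription factor *Nfe2*. They were taken by name. Of the 10 genes, 9 were found among the 23116 genes of the deposited expression table, and all 9 had a mean level high enough to be tested, as had 19293 genes of the table. *Gp6*, the collagen receptor of platelets, has no row there by this symbol and was not analysed here.

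RNA-seq was carried out on HSLAM cells, which were sorted from bone marrow as LSK+ CD150+ CD48- and are the population in which long-term HSCs are concentrated. The 3 *Znf143 f/f* libraries, labelled WT, came from mice with loxP sites around the first exon of *Znf143* and no Cre, and the 3 *Znf143 -/-* libraries, labelled KO, from mice that also carried *Rosa26ERT2-Cre*, a Cre that is driven from a ubiquitous promoter and activated by tamoxifen. All mice were littermates, adult, of the C57BL/6 strain, male and 8 to 12 weeks old by the methods of the study, and both genotypes had been given tamoxifen, with cells taken after 10 days. ZNF143 is a zinc finger protein that binds promoters and has been linked to chromatin looping, and its gene is listed as *Zfp143*. Since the Cre was present in 1 genotype only, and since the deletion was not confined to HSCs, loss of *Znf143*, Cre activity and changes in other tissues cannot be told apart. The labels of the deleted samples name another gene, CTCF, so the level of *Zfp143* is given first.

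Megakaryocytes are the large bone marrow cells that shed platelets. A part of the HSC pool transcribes megakaryocyte genes such as *Itga2b*, *Pf4* and *Vwf* already at the stem cell stage, and such platelet-biased HSCs can give rise to megakaryocytes by a short route. On platelets, the GPIb-IX-V complex binds von Willebrand factor under flow, and integrin αIIbβ3 then binds fibrinogen and links platelets to each other. Alpha granules hold chemokines, adhesive proteins and receptors that reach the surface or the plasma upon activation. Since many of these genes are active in HSCs, their mRNA in HSLAM cells does not mark a mature megakaryocyte.

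*Zfp143* was at 3.09, 4.45 and 3.68 FPKM, fragments per kilobase of gene and per unit of library depth, in the *Znf143 f/f* and at 0.156, 0.299 and 0.272 FPKM in the *Znf143 -/-* libraries. It fell by 3.50 on the log2 scale (limma, adjusted p = 0.001), with no overlap of the genotypes, as the genotype names say. The libraries held 38643255 to 57895793 fragments on genes. FPKM are given here after rescaling of the libraries by median-of-ratios factors, because in the deposited table the second and the third *Znf143 -/-* library were divided by one total, of which the third holds 1.197 times the fragments. The HSLAM markers *Slamf1* (CD150), *Kit*, *Procr* and *Ly6a* (Sca-1) were present in all libraries, but not at equal levels in both genotypes. *Ly6a* was at 240 to 290 FPKM in *Znf143 f/f* and rose to 553 to 605 FPKM in *Znf143 -/-* libraries (limma, adjusted p = 0.00453). *Slamf1* was higher without overlap (5.16 to 7.63 against 7.91 to 9.07 FPKM, limma, adjusted p = 0.24). *Kit* was lower without overlap (19.5 to 22.2 against 13.5 to 16.9 FPKM, limma, adjusted p = 0.066). *Procr* overlapped, at 47.8 to 49.0 against 43.2 to 49.7 FPKM. *Cd48*, the marker sorted against, was at 9.61 to 11.1 FPKM in *Znf143 f/f* and rose to 19.7 to 20.5 FPKM in *Znf143 -/-* libraries (limma, adjusted p = 0.00307).

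The libraries of a genotype were not equally far apart, which bears on each p-value below. The first and the third *Znf143 f/f* library had a median absolute difference of 0.077 on the log2 scale over 12546 genes with a mean of at least 1 FPKM, and the second and the third *Znf143 -/-* library had one of 0.074. The other 4 pairs within a genotype were 0.240 to 0.286 apart, and the 9 pairs across genotypes 0.233 to 0.339. Counting error was judged over genes with at least 100 fragments in the pair (13471 and 14077 genes for the close pairs). The close libraries still differed beyond it at 29.2% and 31.6% of these genes, against 71.3% to 74.3% in the other pairs within a genotype, so they were not the same reads. Why they are so close was not tested. Results are therefore given for 3 against 3 libraries and again with the close libraries averaged, as 2 against 2, under which *Zfp143* was still called (adjusted p = 0.0322). The second *Znf143 f/f* library stood apart from the other two, with the erythroid gene *Car1* at 142 FPKM against 15.1 and 21.9 FPKM. It was 0.264 and 0.240 from the first and the third *Znf143 f/f* library and 0.234 from the first *Znf143 -/-* library. The first *Znf143 -/-* library was in turn 0.286 and 0.245 from the second and the third of its own genotype.

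**Figure D1:**
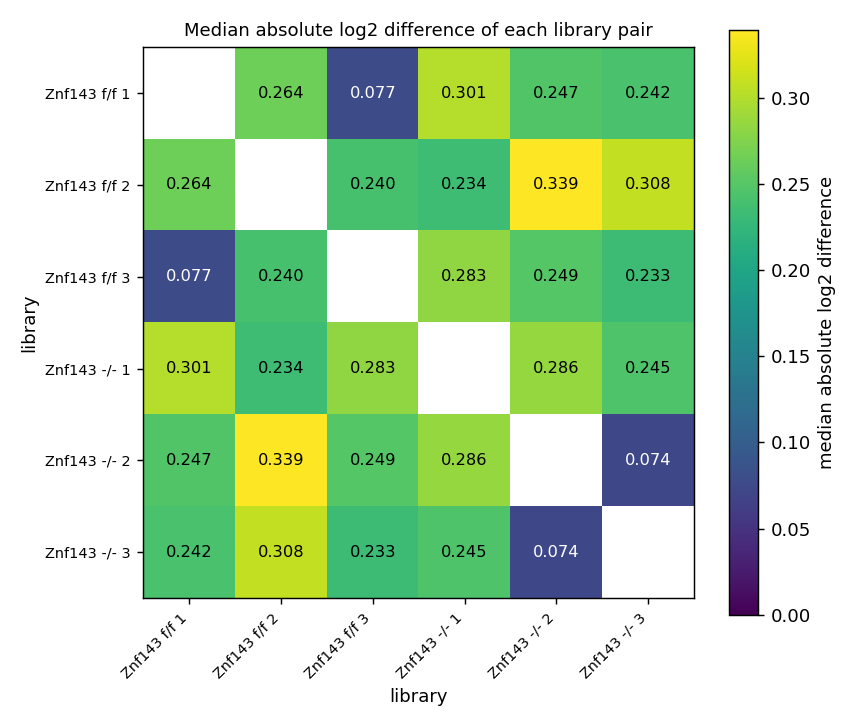
Median absolute log2 difference in FPKM for each pair of the 6 HSLAM libraries, over 12546 genes with a mean of at least 1 FPKM, with darker cells for closer libraries. The pair of *Znf143 f/f* libraries 1 and 3 (0.077) and the pair of *Znf143 -/-* libraries 2 and 3 (0.074) are the closest, and the remaining pairs lie between 0.233 and 0.339.

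Among the 9 genes, *Itgb3* was the only one that rose in *Znf143 -/-* HSLAM cells by the threshold used, a limma adjusted p under 0.05, and none fell. By the same threshold, 5.98% of all genes tested were called (3.0% higher and 2.99% lower). 6 genes, *Gp1bb*, *Itga2b*, *Itgb3*, *Pf4*, *Selp* and *Treml1*, were higher in all 3 *Znf143 -/-* libraries than in any *Znf143 f/f* library, which held for 15.4% of all genes. For *Gp9*, *Vwf* and *Nfe2* the genotypes overlapped. The median difference of the 9 genes was 0.62 on the log2 scale of FPKM + 0.1, beside 0.01 for all genes tested. At an unadjusted p under 0.05, 5 of the 9 genes differed, beside 24.2% of all genes. With the close libraries averaged, none of the 9 genes was called and 5 had an unadjusted p under 0.05, beside 0.243% and 9.91% of all genes. These are bulk samples, in which more mRNA per cell and more cells that hold it cannot be told apart.

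**Figure D2:**
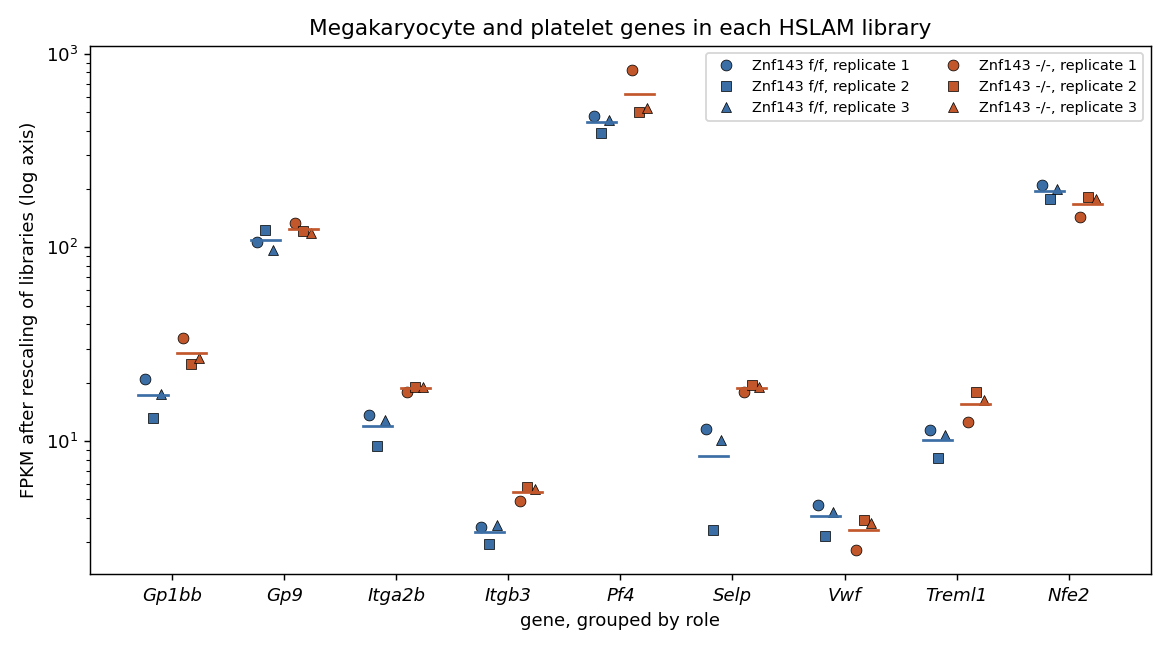
FPKM after rescaling, on a log axis, of 9 megakaryocyte and platelet genes in each of 3 *Znf143 f/f* (blue) and 3 *Znf143 -/-* (orange) libraries, with a symbol for each replicate and a bar at the mean of the genotype. The orange points lie above all blue points for *Gp1bb*, *Itga2b*, *Itgb3*, *Pf4*, *Selp* and *Treml1*, and among the blue points the square of the second library is the lowest for 8 of the 9 genes.

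Per length, *Pf4* was the highest of the 9 genes in both genotypes, with a mean level above that of 99.5% of all genes of the table, followed by *Nfe2* (98.2%) and *Gp9* (97.1%), and within a genotype these 3 did not overlap with each other or with any other of the genes. Below them, *Gp1bb*, *Itga2b*, *Treml1*, *Selp*, *Vwf* and *Itgb3* followed in the *Znf143 f/f* libraries, and each overlapped with the next. In the *Znf143 -/-* libraries *Selp* stood beside *Itga2b* and *Treml1*, which overlapped in this order, while *Gp1bb* lay above them and *Itgb3* and then *Vwf* below, without overlap. The order of levels thus differed between genotypes mainly by *Selp* and *Vwf*.

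The glycoprotein genes come first. *Gp1bb*, the beta chain of GPIb (chr16:18620317-18622403, minus strand, GRCm38), was at 20.9, 13.1 and 17.5 FPKM in *Znf143 f/f* and at 33.9, 25.1 and 26.9 FPKM in *Znf143 -/-* libraries. All *Znf143 -/-* values lay above all *Znf143 f/f* values. The difference was 0.75 on the log2 scale (95% confidence interval 0.28 to 1.21), and limma's adjusted p was 0.0752, or 0.291 with the close libraries averaged. The annotation places 91.1% of the exon bases of *Gp1bb* within exons of *Sept5* on the same strand. Exons of *Gm49601* on that strand, which has no row by this symbol, share 41.5%. Fragments there match more than 1 gene, and how such fragments were counted is not given in the sources used here. *Sept5* itself was at 0.278 to 0.384 FPKM, and the length listed for *Gp1bb*, 1881 bases, is shorter than the 2087 exon bases of the annotation used here, so the value of *Gp1bb* is uncertain.

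*Gp9*, the small subunit that stabilizes the complex on the surface (chr6:87778072-87779768, plus strand), was at 106, 123 and 96.9 FPKM in *Znf143 f/f* and at 134, 122 and 119 FPKM in *Znf143 -/-* libraries. The genotypes overlapped, because the second *Znf143 f/f* library held the highest value of its genotype for this gene. The difference was 0.20 on the log2 scale (95% confidence interval -0.07 to 0.47) with a limma adjusted p of 0.325. The other subunits of the complex belong to a wider list. *Gp5*, which binds to GPIb-IX without being required for it, was at 19.7, 16.3 and 19.3 FPKM in *Znf143 f/f* and rose to 30.4, 26.9 and 28.3 FPKM in *Znf143 -/-* libraries (log2 difference 0.63, 95% confidence interval 0.39 to 0.87, limma adjusted p = 0.0204, 0.253 with averaging). *Gp1ba*, the chain that holds the binding site for von Willebrand factor, was low, at 4.02, 2.31 and 3.26 against 3.08, 5.16 and 4.53 FPKM, and the genotypes overlapped. The 4 genes of the complex were thus present at unequal levels. The ratio of *Gp9* to *Gp1bb* was 5.06, 9.39 and 5.53 in *Znf143 f/f* (6.66 ± 2.37, SD, n = 3), the second library being far above the others. It was 3.95, 4.85 and 4.41 in *Znf143 -/-* libraries (4.40 ± 0.45), and it shares the uncertainty of *Gp1bb*.

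The genes of integrin αIIbβ3 had nearly the same difference. *Itga2b*, the alpha chain known as CD41 (chr11:102453297-102470122, minus strand), was at 13.6, 9.4 and 12.9 FPKM in *Znf143 f/f* and at 17.9, 19.1 and 19.1 FPKM in *Znf143 -/-* libraries. The genotypes did not overlap, and the second *Znf143 f/f* library was the lowest. The difference was 0.66 on the log2 scale (95% confidence interval 0.30 to 1.01), and limma's adjusted p was 0.0523, just above the threshold. Without the second *Znf143 f/f* library the difference was smaller, 0.49, with an adjusted p of 0.0207, which rests on the spread of the close pair left. With the close libraries averaged the adjusted p was 0.329.

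*Itgb3*, the beta chain (chr11:104608000-104670476, plus strand), was at 3.58, 2.93 and 3.69 FPKM in *Znf143 f/f* and rose to 4.89, 5.78 and 5.62 FPKM in *Znf143 -/-* libraries. It was called with a log2 difference of 0.66 (95% confidence interval 0.35 to 0.98, limma adjusted p = 0.0379). Its lowest *Znf143 -/-* value was above its highest *Znf143 f/f* value, and between 809 and 1927 fragments per library stood behind these values. The call was lost with the close libraries averaged (difference 0.68, adjusted p = 0.385) and without any 1 of the 4 libraries of the close pairs (adjusted p between 0.109 and 0.176), while it held without the second *Znf143 f/f* (0.0348) or the first *Znf143 -/-* library (0.0298). It was also lost with FPKM as deposited (0.0873), with libraries divided by their own totals (0.0728) and without the variance trend (0.055), and in all it held under 7 of 16 alternatives. The ratio of *Itga2b* to *Itgb3*, which no scaling of libraries can change, was 3.50 ± 0.292 in *Znf143 f/f* and 3.45 ± 0.183 in *Znf143 -/-* libraries (SD, n = 3). Both chains are on the same chromosome, and the ratio was chosen after the values were seen.

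Among the 3 granule genes, *Selp* had the largest difference between genotypes, and for *Vwf* the genotypes overlapped. *Selp*, which encodes the adhesion receptor P-selectin (chr1:164115264-164150026, plus strand), was at 11.6, 3.49 and 10.1 FPKM in *Znf143 f/f* and at 17.9, 19.5 and 18.9 FPKM in *Znf143 -/-* libraries. The *Znf143 -/-* libraries were close to each other and all above the *Znf143 f/f* libraries, of which the second was far below the others. The difference was 1.32 on the log2 scale (95% confidence interval 0.31 to 2.33, limma adjusted p = 0.121). Without the second *Znf143 f/f* library the difference was smaller, 0.79, with an adjusted p of 0.0117. The close pair then stood for that genotype, so this p rests on the spread of that pair. With the close libraries averaged the adjusted p was 0.355. The antisense genes *Gm16587* and *Gm16548* share 4.2% and 9.9% of the exon bases of *Selp*, and both were at 2.05 FPKM or less.

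*Pf4*, the chemokine platelet factor 4 (chr5:90772435-90773383, plus strand), was at 479, 391 and 457 FPKM in *Znf143 f/f* and at 824, 501 and 523 FPKM in *Znf143 -/-* libraries. The genotypes did not overlap, but the first *Znf143 -/-* library was far above the other two. The difference was 0.44 on the log2 scale (95% confidence interval -0.07 to 0.95, limma adjusted p = 0.261), and it was 0.21 without the first *Znf143 -/-* library. With 13216 to 26216 fragments per library, counting error did not limit this value. *Ppbp*, the chemokine gene next in kind, was at only 3.84, 5.95 and 3.42 against 6.86, 8.08 and 7.93 FPKM (log2 difference 0.82, limma adjusted p = 0.0731).

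*Vwf*, the gene of von Willebrand factor and a marker of platelet-biased HSCs (chr6:125546774-125686679, plus strand), was at 4.70, 3.22 and 4.32 FPKM in *Znf143 f/f* and at 2.73, 3.93 and 3.76 FPKM in *Znf143 -/-* libraries. The genotypes overlapped. The difference was -0.23 on the log2 scale (95% confidence interval -0.70 to 0.25, limma adjusted p = 0.544), and the interval was -0.92 to 0.47 with the close libraries averaged. *Selp* and *Vwf* are both stored by platelets and by endothelial cells, yet the ratio of *Selp* to *Vwf* was 2.46, 1.08 and 2.34 in *Znf143 f/f* and 6.55, 4.97 and 5.01 in *Znf143 -/-* libraries. This ratio does not depend on the scaling of libraries, and it too was chosen after the values were seen.

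*Treml1*, which encodes a receptor of alpha granules known as TLT-1 (chr17:48359916-48367176, plus strand), was at 11.4, 8.21 and 10.7 FPKM in *Znf143 f/f* and at 12.6, 18.0 and 16.2 FPKM in *Znf143 -/-* libraries. The first *Znf143 -/-* library was only slightly above the highest *Znf143 f/f* library. The difference was 0.62 on the log2 scale (95% confidence interval 0.20 to 1.04, limma adjusted p = 0.0936). Without the first *Znf143 -/-* library it was 0.77, with an adjusted p of 0.0431 that rests on the spread of the close pair left. With the close libraries averaged the adjusted p was 0.479.

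*Nfe2*, the transcription factor subunit needed for platelet release (chr15:103248212-103258403, minus strand), was at 211, 177 and 201 FPKM in *Znf143 f/f* and at 144, 182 and 177 FPKM in *Znf143 -/-* libraries. It was one of 2 genes of the 9, with *Vwf*, whose mean was lower in *Znf143 -/-* cells. The genotypes overlapped, and the difference was -0.23 on the log2 scale (95% confidence interval -0.53 to 0.07, limma adjusted p = 0.325). With the close libraries averaged the interval was wider, -0.75 to 0.26.

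**Figure D3:**
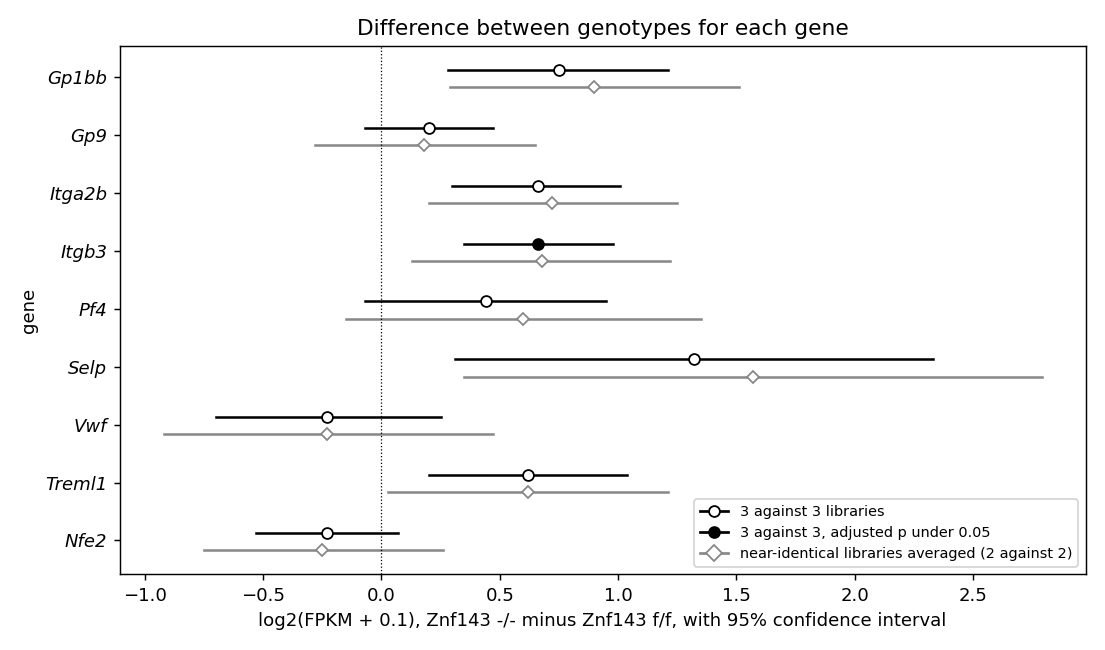
Difference between *Znf143 -/-* and *Znf143 f/f* libraries in log2(FPKM + 0.1) for 9 genes, with bars for the 95% confidence interval, for 3 against 3 libraries (black circles) and with the close libraries averaged, 2 against 2 (grey diamonds). Filled symbols have an adjusted p under 0.05, which is reached by *Itgb3* alone among the black circles and by no grey diamond.

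An exact permutation test of 3 against 3 libraries cannot give a two-sided p below 0.1. Any gene without overlap reaches that smallest p (15.4% of all genes above and 15.3% below). It was reached by the 6 genes without overlap and adds nothing to that count, while *Gp9* and *Nfe2* gave 0.3 and *Vwf* gave 0.4. With the close libraries averaged, the differences of the 9 genes lay between -0.25 (*Nfe2*) and 1.57 (*Selp*) on the log2 scale, and limma's adjusted p between 0.291 (*Gp1bb*) and 0.864 (*Vwf*). Within a genotype, one library was often the lowest. The second *Znf143 f/f* library was the lowest of its genotype for 8 of them, against 44.7% of all genes, and *Gp9* was the exception. The first *Znf143 -/-* library was the lowest of its genotype for 6 genes (45.6% of all genes) and the highest for *Gp1bb*, *Gp9* and *Pf4* (44.2% of all genes).

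Promoters are shown for the 4 of the 6 genes without overlap in which a GATA or ETS motif was found, since GATA1 and the ETS factor FLI1 are known regulators of megakaryocyte genes. The sequences are RefSeq promoters of build GRCm38.p6, from 250 bases before to 50 bases after the RefSeq start of the gene. They are written 5′ to 3′ on the strand of the gene. For *Itga2b*, the gene coordinates given above start at 102470122 on the minus strand. Most of its window, with both ETS matches, therefore lies within the annotated gene. Capitals mark the GATA motif, searched as the letters AGATAA or the letters TGATAA and also as the letters AGATAG or the letters TGATAG, and the ETS motif, searched as the letters AGGAAG, each of them on either strand. In these windows no GATA match overlapped an ETS match.
Gp1bb: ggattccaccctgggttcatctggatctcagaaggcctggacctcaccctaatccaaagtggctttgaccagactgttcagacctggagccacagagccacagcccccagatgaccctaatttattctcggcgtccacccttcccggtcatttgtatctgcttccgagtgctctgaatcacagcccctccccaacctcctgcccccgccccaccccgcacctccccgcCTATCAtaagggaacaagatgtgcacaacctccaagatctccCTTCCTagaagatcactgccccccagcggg
Itga2b: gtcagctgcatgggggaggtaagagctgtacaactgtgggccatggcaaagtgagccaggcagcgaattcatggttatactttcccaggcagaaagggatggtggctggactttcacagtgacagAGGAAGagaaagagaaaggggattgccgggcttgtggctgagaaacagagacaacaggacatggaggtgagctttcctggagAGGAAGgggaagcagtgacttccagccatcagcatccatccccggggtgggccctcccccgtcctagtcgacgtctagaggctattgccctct
Pf4: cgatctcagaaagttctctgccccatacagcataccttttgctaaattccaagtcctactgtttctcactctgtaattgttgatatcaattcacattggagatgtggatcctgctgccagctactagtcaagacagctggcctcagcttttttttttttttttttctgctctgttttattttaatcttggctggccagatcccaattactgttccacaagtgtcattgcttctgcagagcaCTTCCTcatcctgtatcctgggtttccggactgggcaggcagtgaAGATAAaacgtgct
Selp: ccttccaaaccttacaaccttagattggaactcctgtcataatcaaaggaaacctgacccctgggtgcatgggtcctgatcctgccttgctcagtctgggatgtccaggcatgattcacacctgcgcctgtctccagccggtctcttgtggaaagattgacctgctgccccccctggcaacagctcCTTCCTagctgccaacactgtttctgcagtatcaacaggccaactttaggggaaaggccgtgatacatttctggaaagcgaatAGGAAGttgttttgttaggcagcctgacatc
They lie at chr16:18622354-18622653 (minus strand), chr11:102469834-102470133 (minus strand), chr5:90772185-90772484 (plus strand) and chr1:164115014-164115313 (plus strand).

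RefSeq promoters were matched for 7 of the 10 genes, which are these 4 with *Gp9*, *Gp6* and *Treml1*. *Vwf*, *Nfe2* and *Itgb3* had no entry. The ETS motif was found in 5 of the 7 promoters, those of *Gp1bb*, *Itga2b*, *Pf4*, *Selp* and *Gp9*, and in 35.4% of all 32851 promoters of this length. The GATA motif was found in 3 of the 7, those of *Gp1bb*, *Pf4* and *Gp6*, and in 29.8% of all promoters. *Itga2b* and *Selp* each held 2 ETS matches and *Treml1* held neither motif. The letters TGTGGT of a RUNX motif were in the *Gp9* promoter only (16.8% of all promoters), and neither TGAGTCA, bound by NF-E2 (5.2%), nor ACTACAA, the core of a ZNF143 motif (3.2%), was in any of the 7. A match is a stretch of letters and not a bound site.

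Other megakaryocyte and platelet genes differed in both directions. Of a list of 101 such genes, which holds none of the 10, 100 were in the table and 95 were tested, 8 of which rose and 2 fell, beside 3.0% of all genes called higher and 2.99% called lower. Their median difference was 0.04 on the log2 scale. All 3 *Znf143 -/-* libraries lay above all *Znf143 f/f* libraries for 22 of the 95 and below them for 23, beside 15.4% and 15.3% of all genes. With the close libraries averaged none was called by limma, beside 0.243% of all genes, and the adjusted p of the 10 genes then lay between 0.176 (*Plek*) and 0.513 (*Runx1*). At an unadjusted p under 0.05 in the 3 against 3 libraries 34 differed, beside 24.2% of all genes. *Thpo*, the gene of the hormone thrombopoietin, has no row by this symbol.

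For 5 of the 16 platelet receptor genes tested, all *Znf143 -/-* libraries lay above all *Znf143 f/f* libraries, and for 5 below (15.4% and 15.3% of all genes). By limma 3 of the 16 rose (3.0% of all genes) and none fell. Besides *Gp5* these were *Cd151*, a tetraspanin that binds integrins, which was at 5.20 to 5.97 FPKM in *Znf143 f/f* and at 8.05 to 9.92 FPKM in *Znf143 -/-* libraries (log2 difference 0.65, limma adjusted p = 0.0257), and *P2ry1*, an ADP receptor, which was at 1.09 to 1.27 and 2.23 to 2.49 FPKM (log2 difference 0.99, limma adjusted p = 0.0123). *Clec1b*, the podoplanin receptor that is abundant on platelets, was near the limit of testing at 0.296 to 0.557 FPKM in all libraries.

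Of 18 granule and secretion genes tested, *Serpine2*, a protease inhibitor of platelets, was the only one called (5.98% of all genes), at 0.936 to 1.28 FPKM in *Znf143 f/f* and 2.06 to 2.28 FPKM in *Znf143 -/-* libraries (log2 difference 0.89, limma adjusted p = 0.0288). Of 20 cytoskeletal and proplatelet genes tested, 2 rose and 1 fell (3.0% and 2.99% of all genes). *Myl9*, counted among the 20, was at 0 FPKM in all *Znf143 f/f* and at 0, 0.334 and 0.281 FPKM in *Znf143 -/-* libraries. It reached the mean needed for testing only through the *Znf143 -/-* libraries and was not called. *Tuba8*, an alpha tubulin, was at 17.3 to 22.8 FPKM and rose to 30.4 to 40.3 FPKM (log2 difference 0.84, limma adjusted p = 0.0276), and *Tpm4*, a tropomyosin of megakaryocytes, was at 8.22 to 9.94 FPKM and rose to 14.8 to 16.0 FPKM (log2 difference 0.79, limma adjusted p = 0.00879). *Diaph1*, an actin-nucleating formin, fell from 21.0 to 23.1 FPKM to 15.2 to 16.5 FPKM (log2 difference -0.47, limma adjusted p = 0.0256). *Tubb1*, the beta tubulin of the platelet marginal band, was at 0.777 to 1.19 FPKM in all libraries, and the genotypes overlapped. Of 22 signalling genes tested, *Plek*, the protein kinase C substrate pleckstrin, was called, at 5.42 to 6.77 and 11.1 to 14.8 FPKM (log2 difference 1.12, limma adjusted p = 0.0105).

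Of 19 transcription factors tested, 1 rose and 1 fell, beside 3.0% and 2.99% of all genes. *Gata1*, the main factor of megakaryocyte and erythroid genes, was at 22.4, 21.2 and 21.2 FPKM in *Znf143 f/f* and rose to 33.7, 37.6 and 36.4 FPKM in *Znf143 -/-* libraries (log2 difference 0.73, 95% confidence interval 0.54 to 0.92, limma adjusted p = 0.00569, 0.199 with the close libraries averaged). It was the single factor of the 19 for which all *Znf143 -/-* libraries lay above all *Znf143 f/f* libraries, while for 9 they lay below (15.3% of all genes), and the median difference of the 19 was -0.13. *Runx1*, which is mutated in familial platelet disorder, fell from 8.6, 8.24 and 9.0 FPKM to 6.17, 6.38 and 6.59 FPKM (log2 difference -0.43, limma adjusted p = 0.04). *Gata2*, which precedes *Gata1* in the lineage, was at 43.6 to 47.1 against 36.3 to 40.5 FPKM (log2 difference -0.26, limma adjusted p = 0.109), and *Gfi1b*, a repressor needed for megakaryocytes and red cells, at 66.6 to 78.8 against 49.4 to 61.3 FPKM (log2 difference -0.36, limma adjusted p = 0.117). *Fli1* was at 29.4 to 39.2 against 36.7 to 42.5 FPKM, and the genotypes overlapped.

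**Figure D4:**
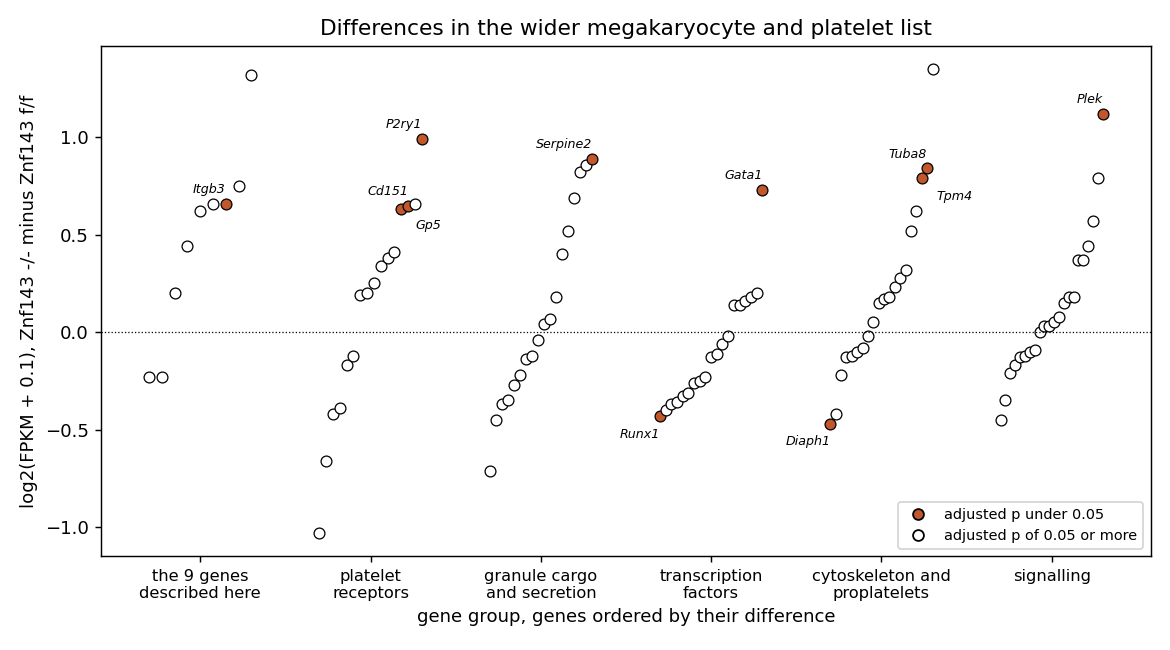
Difference between *Znf143 -/-* and *Znf143 f/f* libraries in log2(FPKM + 0.1) for the 9 genes and for the 95 tested genes of the wider list by role, 1 point per gene, ordered by size within each group and filled and named where the adjusted p is under 0.05. Points lie on both sides of 0 in each group, and the called genes are 9 above 0, *Itgb3* among them, and 2 below 0, *Runx1* and *Diaph1*.

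Markers of other cells were measured in the same libraries, and their part in the differences above was not tested. *Vwf* and *Selp* are also endothelial genes. *Cdh5*, the defining endothelial gene, has no row by this symbol, and *Stab2* was at 0.0373 FPKM or less. None of 6 endothelial genes tested was called by limma (5.98% of all genes), with 1 at an unadjusted p under 0.05 (24.2% of all genes). The summed level of the endothelial list was 55.9 to 66.8 FPKM in *Znf143 f/f* and 37.2 to 52.8 FPKM in *Znf143 -/-* libraries, and most of it was *Eng* (27 to 34.9 against 16.9 to 23.6 FPKM) and *Tie1* (17.8 to 20.6 against 12 to 18.4 FPKM). *Selp* was higher and *Vwf* had a mean that was lower in *Znf143 -/-* libraries. Of 11 neutrophil genes tested, 5 rose and none fell (3.0% and 2.99% of all genes), and none of the 5 was called with the close libraries averaged. *Elane* was at 0.083 to 0.809 against 2.95 to 11.0 FPKM and *S100a8* at 18.7 to 38.5 against 57.6 to 78.4 FPKM. The summed level of the neutrophil list was 205 to 270 against 274 to 433 FPKM, of which *Prtn3*, at 227, 122 and 213 against 279, 141 and 159 FPKM, made up the largest part in all libraries, and *Prtn3* itself overlapped between genotypes (log2 difference 0.03, limma adjusted p = 0.97).

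Of 10 erythroid genes tested, *Rhag* rose and *Hbb-bt* fell (3.0% and 2.99% of all genes), and 6 had an unadjusted p under 0.05 (24.2% of all genes). All *Znf143 -/-* libraries lay below all *Znf143 f/f* libraries for 4 of them and above for 2 (15.3% and 15.4% of all genes). *Rhag* was at 3.23 to 3.84 against 7.55 to 12.9 FPKM (log2 difference 1.59, limma adjusted p = 0.011), and *Hbb-bt* at 1.88 to 2.82 against 0.661 to 1.06 FPKM (log2 difference -1.38, limma adjusted p = 0.0273). *Hba-a1* (8.43 to 18.7 against 5.38 to 6.58 FPKM), *Car1* (15.1 to 142 against 6.92 to 9.45 FPKM) and *Ermap* (0.404 to 1.23 against 0.0128 to 0.153 FPKM) were lower without overlap and were not called. *Epor* was higher without overlap (9.79 to 13.6 against 15.4 to 15.9 FPKM) and was not called (limma adjusted p = 0.142). *Hbb-bs* overlapped at 16.9 to 48.5 against 18.0 to 21.9 FPKM. The summed level of the list was 75.6 to 249 against 79.0 to 79.6 FPKM, the highest value being that of the second *Znf143 f/f* library.

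The genes taken as defining for 3 other lineages were near 0, with *Csf1r* of macrophages at 0.264 FPKM or less, *Cd79a* of B cells at 0.084 FPKM or less and *Cd3e* of T cells at 0.0501 FPKM or less. Other genes of these lists were not, with *Cd68* of macrophages at 15.6 to 21.9 FPKM, *Cd79b* of B cells at 39.1 to 48.6 FPKM and *Nkg7* of T and NK cells at 120 to 130 FPKM in *Znf143 f/f* and 206 to 262 FPKM in *Znf143 -/-* libraries. *Csf1r* was the 1 of 4 macrophage genes tested that was called, as higher (3.0% of all genes). It was at 0 to 0.014 FPKM in *Znf143 f/f* and at 0.186 to 0.264 FPKM in *Znf143 -/-* libraries. It thus reached the mean of 0.1 FPKM needed for testing only through the *Znf143 -/-* libraries, and nothing is drawn from this call. The summed level of the macrophage list was 16.2 to 20.1 against 18.7 to 23.5 FPKM, and that of the B cell list 42.9 to 51.8 against 41.3 to 48 FPKM. That of the T and NK cell list was 123 to 134 against 212 to 267 FPKM, nearly all of it *Nkg7*. By limma 0 of 2 B cell genes were called (5.98% of all genes), with 1 at an unadjusted p under 0.05 (24.2% of all genes). Of 5 T and NK cell genes 2 were called, both higher (3.0% of all genes). *Cma1* of mast cells has no row by this symbol. Of 4 mast cell and basophil genes tested 0 were called (5.98% of all genes) and 2 had an unadjusted p under 0.05 (24.2% of all genes). Their list had summed levels of 3.40 to 4.72 against 3.81 to 22.8 FPKM. Of 14 stem cell and early progenitor genes tested, 3 rose, *Ly6a*, *Cd48* and *Flt3*, and 1, *Mecom*, fell (3.0% and 2.99% of all genes). The summed level of that list was 498 to 578 against 824 to 868 FPKM, of which *Ly6a* made up the largest part. The median difference of the 14 genes was -0.10 on the log2 scale. All *Znf143 -/-* libraries lay above all *Znf143 f/f* libraries for 4 of them and below for 5 (15.4% and 15.3% of all genes). With the close libraries averaged, *Flt3* was the only gene of all marker lists still called (limma, adjusted p = 0.0405).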

How the data were processed

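The 6 RNA-seq libraries of HSLAM cells were analysed, 3 of each genotype, and 19 of the 25 samples of the series, of other assays or conditions, were not analysed here. The authors prepared cDNA with SMART-Seq v4 and libraries with Nextera XT, which do not mark strand, sequenced paired 76-base reads, trimmed with TrimGalore, aligned to GRCm38 (mm10) with STAR, counted with FeatureCounts and deposited FPKM per gene and library beside the results of their own DESeq2 comparison, which were not used. The study's reporting summary gives STAR 2.5.1b (modified), TrimGalore 0.6.0, FeatureCounts 1.5.2 and DESeq2 1.22.2. The annotation release is not given in the sources used here.

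Whole fragments were recovered from FPKM times gene length in 99.986% of 138696 values (within 0.05 of a whole number). Libraries were brought to one scale with size factors (median of ratios, 19046 genes). For genes with a mean of at least 0.1 FPKM, log2(FPKM + 0.1) was compared between genotypes by limma (version 3.58.1, under R 4.3.3) with lmFit and a trended eBayes and no block, adjusted by Benjamini and Hochberg over all 19293 genes, threshold 0.05, which understates folds of low genes. Separate libraries of a genotype are taken as replicates, and p-values measure their spread, which may in part be technical.

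The 10 genes and all lists were chosen with earlier results of these data known. Named are the 10 genes, *Zfp143*, genes of the wider list with an adjusted p under 0.05 or named in advance (*Gata1*, *Gata2*, *Fli1*, *Runx1*, *Gfi1b*, *Ppbp*, *Gp1ba*, *Gp5*, *Tubb1*, *Clec1b*, *Thpo*), defining markers and genes overlapping a member. A further gene of the wider list is not reported here on its own. *Car1*, *Rhag*, *Hbb-bt*, *Hba-a1*, *Ermap*, *Epor*, *Prtn3*, *Cd68*, *Cd79b*, *Nkg7*, *Eng*, *Tie1*, *Stab2*, *Flt3*, *Mecom* and *Myl9* were named after their values were seen. Coordinates are from GENCODE on GRCm38 and promoters from RefSeq. Other steps ran in Python 3.11.15 (scipy 1.17.1, pandas 2.3.3, numpy 2.4.6, figures by matplotlib 3.10.9). Results were recomputed under 14 other settings of scaling, pseudocount, filter, model and libraries left out, and under 2 more that were chosen after seeing the data (division by own totals, and averaging of close libraries).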

Additional observations from a re-analysis of the deposited data

How the results depend on the processing

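The direction of each of the 9 genes was the same under all 16 alternatives, and of 144 values 130 kept their side of the threshold, 9 lost a call and 5 gained one. The number of the 9 genes called was 1 as reported, beside 1154 of all genes. It was 2 with a mean of at least 1 FPKM (*Itga2b* joined with 0.048), beside 960 of all genes. With limma's voom on recovered fragments it was 2 (*Itga2b*, 0.0344), beside 1413 of all genes. It was 0 with FPKM as deposited, without the variance trend and with each library divided by its own total, beside 833, 1077 and 1003 of all genes. With the close libraries averaged it was 0, beside 47 of all genes. With 1 library left out it was 0 to 3, beside 223 to 2286 of all genes. The median difference of the 9 genes stayed between 0.48 and 0.70 with 1 library left out. FPKM as deposited gave a median of 0.73 for the 9 genes and 0.11 for all genes, and 63.5% of called genes were then higher, beside 50.1% as reported.

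Genes called numbered 1154 as reported, with 1 library left out 223 (the third *Znf143 -/-*) to 2286 (the second *Znf143 f/f*), and 47 with the close libraries averaged. For the wider list 10 became 0 with averaging and, with 1 library left out, 0 (the third *Znf143 -/-*), 1 (the second *Znf143 -/-* or the third *Znf143 f/f*), 3 (the first *Znf143 f/f*), 16 (the second *Znf143 f/f*) or 17 (the first *Znf143 -/-*). Leaving out the second *Znf143 f/f* or the first *Znf143 -/-* library leaves a close pair as that genotype, so the spread is then that pair's. Since the averaging leaves 2 libraries a genotype, fewer calls follow in part from its construction.

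With the replicate block, 191 genes, 0 of the 9 genes and 0 of the wider list were called. By the study's supplement the mice were 3 littermate pairs, but which library belongs to which pair is not given in the sources used here, and the replicate numbers were not taken as pairs. Deviations of same-numbered libraries had correlations of -0.10, -0.09 and 0.04, and 2 of 6 libraries were closest to their own number. Depth did not limit the 9 genes, the lowest value resting on 564 fragments.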
